A study of Mus musculus with 12 samples.

Results

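The genes described here are 42 mouse genes of homologous recombination and DNA repair, of 26301 genes counted in a series of wild-type livers and liver tumors. They were chosen by name and not by their values, and each of the 42 symbols was found in the table. They fall into 12 strand exchange proteins and mediators, 11 Fanconi anemia genes, 6 genes of end resection and resolution, 5 checkpoint kinases and partners, 2 mismatch repair genes, 2 genes of single-strand break repair and 4 genes of end joining.

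Homologous recombination repairs broken DNA by copying the intact sister chromatid, and so works mainly while cells replicate and after they have replicated their DNA. BRCA proteins and their partners guide the strand exchange, and the Fanconi anemia proteins bring the same machinery to crosslinked DNA at stalled replication forks. End joining, which reseals breaks without a template, is available throughout the cell cycle, and in the resting adult liver most hepatocytes are outside the cycle.

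RNA was measured by sequencing poly(A) RNA in 12 libraries from adult mice of an end-of-life study, with 4 non-tumor livers of wild-type mice (control), 4 liver tumors with E2f7 and E2f8 deleted by Alb-Cre (labelled DKO) and 4 liver tumors with Rb1, E2f7 and E2f8 deleted by Alb-Cre (labelled TKO). Alb-Cre expresses the Cre recombinase from the albumin promoter, which is active in hepatocytes, so other cells of a tumor keep the genes. E2F7 and E2F8 are atypical E2F factors that repress cell cycle genes, and RB restrains the activating E2F factors. The study asked whether RB and the atypical E2Fs restrain E2F-dependent transcription together in the liver. The controls carried none of the deletions and the tumors were compared with whole non-tumor liver, so genotype and tumor state cannot be told apart. The labels do not say that every tumor came from its own mouse, and the p-values measure the spread between these samples.

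The total count per library was 9165812 to 16424973, and values are given as CPM, the count of a gene scaled to a common library size after TMM normalization. Of the 13882 genes tested with edgeR's quasi-likelihood test, 41 were members, and their counts ran from 0 to 804 per library. The check of the deleted genes was uneven. Rb1 was at 6.52 to 10.7 CPM in control livers, 7.99 to 11.3 CPM in tumors labelled DKO and 3.21 to 5.47 CPM in tumors labelled TKO. E2f7 was at 0.542 to 1.11, 0.236 to 1.84 and 0.690 to 0.895 CPM in the same order, and E2f8 at 4.52 to 8.97, 7.59 to 45.6 and 12.3 to 52.2 CPM. Rb1 was thus lower in every tumor labelled TKO, whereas the counts of E2f7 and E2f8 did not show their deletion in either tumor group, and counts over a whole gene also hold the exons that a deletion leaves. The hepatocyte markers Alb, Apoa1, Ttr and the other 6 of the list summed to between 60531 and 325543 CPM in every library. Their ranges overlapped between groups. No tested hepatocyte, lymphocyte, macrophage, endothelial, stellate or biliary marker was called in either tumor group. Of 10 erythroid and myeloid precursor markers, 5 were tested and 1 was called in tumors labelled DKO, and of 6 biliary markers 4 were tested. Few genes of any kind were called, 2.42% in tumors labelled DKO and 0.0864% in tumors labelled TKO, so the lack of calls does not show equal cell composition. Albumin alone took 6.57% to 10.1% of the counts in control livers, 11.9% to 22.7% in tumors labelled DKO, with no overlap, and 4.82% to 18.9% in tumors labelled TKO. Of the 9 hepatocyte markers, however, only 4 had a higher mean in tumors labelled DKO and 3 in tumors labelled TKO. Of the 8 macrophage markers, 7 had a lower mean in each tumor group, and their sum was 205 to 541, 65.7 to 447 and 136 to 598 CPM in the same order. Of the 10 lymphocyte markers, 8 were tested, and 0 had a higher mean in tumors labelled DKO and 3 in tumors labelled TKO. The sum of the lymphocyte markers was 12.05 to 38.2, 9.55 to 32.6 and 14.1 to 22.3 CPM. A higher mean in tumors labelled DKO and TKO was seen for 5 and 7 of 7 endothelial markers and 5 and 6 of 8 stellate and fibroblast markers. For biliary markers it was 6 and 3 of 6, and for erythroid and myeloid precursor markers 9 and 9 of 10. The part of these markers in the values of the members was not tested. A list of 30 mitotic markers, none of them a member, summed to 32.9 to 63.0 CPM in control livers, 83.8 to 276 CPM in tumors labelled DKO and 46.9 to 170 CPM in tumors labelled TKO.

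Several members differed from control livers by more than a doubling, yet none of the 41 tested members passed an adjusted p of 0.05 in any comparison. Against control livers, 336 genes were called in tumors labelled DKO (2.42% of the genes tested), 12 in tumors labelled TKO (0.0864%) and 344 in all 8 tumors (2.48%), and 0 genes differed between the tumor genotypes (0%). At an unadjusted p under 0.05, 11 members differed in tumors labelled DKO (8 higher and 3 lower, where 24% of all genes did), 7 in tumors labelled TKO (5 higher and 2 lower, 16.3%), 12 in all tumors (10 higher and 2 lower, 23%) and 3 between the genotypes (all higher in TKO, 9%). These shares were near those of all genes. DESeq2, run as an alternative, gave calls for 5 members in tumors labelled DKO (10.4% of all genes), 0 in tumors labelled TKO (3.49%), 3 in all tumors (9.49%) and 0 between the genotypes (0.398%). The 5 were Bard1, Brca1, Fancd2 and Rad51ap1, all higher, and Fancl, which was lower, and the 3 were Fancd2, Rad51ap1 and Rad51c.

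The estimated differences were skewed upwards. A log2 fold change above 1 was seen for 12 members in tumors labelled DKO (7.4% of all genes), 10 in tumors labelled TKO (5.47%) and 9 in all tumors (5.99%), and for 0 members between the genotypes (2.02%). No member had a log2 fold change below -1, where 3.6%, 1.85%, 2.28% and 2.19% of all genes did in the 4 comparisons in the same order. A log2 fold change above 0 was seen for 27, 28, 24 and 20 members (51.6%, 52.5%, 52.1% and 51.2% of all genes). The median log2 fold change over the members was 0.16, 0.15 and 0.15 in these comparisons with controls, beside 0.02 over all tested genes in each. A few genes with high estimates thus stood beside a majority that lay close to the control livers, as the plot of fold changes shows. Members with little RNA in control livers passed the expression filter only through tumor libraries in which they were higher. The filter thus favours high estimates among low genes, members or not, and its part in the skew was not tested. Without DKO 2 and TKO 1, the tumors with the most mitotic marker RNA of their genotype, 7, 1 and 3 of the 40 members then tested were above 1 (7.17%, 4.89% and 5.24% of all genes). Exo1 fell below the filter in that fit.

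**Figure D1:**
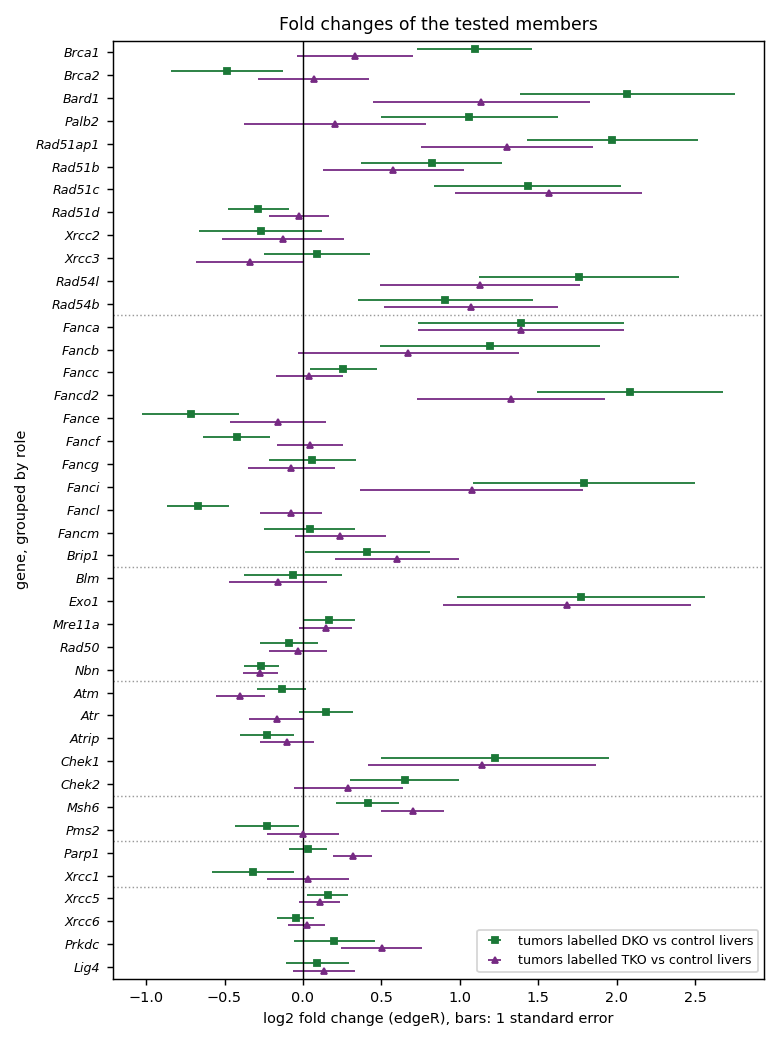
Log2 fold change (edgeR) of each of the 41 tested members against control livers, for tumors labelled DKO (squares) and TKO (triangles), n = 4 libraries in each group, with bars of 1 standard error and dotted lines between role classes. Bard1, Fancd2 and Rad51ap1 lie near 2 in tumors labelled DKO, whereas most members of end joining and single-strand break repair lie within 0.5 of 0.

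Levels in control livers differed widely within and between roles, here on the scale of CPM per kilobase of exon. In control livers Xrcc5 and Xrcc6, which together form the Ku ring that caps broken ends, were at 11.3 and 4.41 CPM per kilobase, while their end joining partners Lig4 and Prkdc were at 1.44 and 0.491. Parp1, the sensor of strand breaks, was at 10.04. Nbn, the signalling subunit of the MRN end-binding complex, was at 9.05, Rad51b, a strand exchange mediator, at 4.12, and Msh6, a mismatch sensor, at 3.97. Fancd2, Exo1, Rad54l and Fanca were the lowest of the tested members, at 0.0624, 0.0684, 0.0828 and 0.0854. Of these 4, each had a log2 fold change above 1 in both tumor groups, on few counts. The filter keeps a gene that reaches a minimum level in as many libraries as a group holds. Genes this low in control livers passed it only through tumor libraries, so their high estimates were partly set by the filter.

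Among the strand exchange genes, 6 of 12 had a log2 fold change above 1 in tumors labelled DKO and 5 of 12 in tumors labelled TKO, and 0 of 12 were called. Rad51ap1, which helps strand invasion (Entrez 19362, chr6:126873068-126889605 in mm9, minus strand), had the highest log2 fold change of the class in all tumors, at 1.64. It was at 0.816, 0.369, 0.610 and 0.439 CPM in control livers 1 to 4, 2.30, 3.72, 1.77 and 1.30 CPM in tumors labelled DKO, and 3.01, 0.711, 0.614 and 1.27 CPM in tumors labelled TKO, on 3 to 50 counts. Every tumor labelled DKO was above every control, but TKO 2 and TKO 3 lay within the control range. The log2 fold change was 1.97 ± 0.54 (SE) in tumors labelled DKO (adjusted p = 0.069) and 1.30 ± 0.55 in tumors labelled TKO (adjusted p = 0.26). Without DKO 2 and TKO 1 the values were 1.63 ± 0.41 and 0.59 ± 0.43.

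In every tumor labelled DKO, 5 of the 41 members lay above all controls, beside 8.87% of all genes, namely Brca1, Bard1, Rad51ap1, Rad51c and Rad54l, all of this class. Brca1, which steers breaks to recombination, was at 9.72, 2.83, 4.81 and 6.08 CPM in control livers, 15.3, 13.8, 10.3 and 11.1 CPM in tumors labelled DKO and 9.59, 8.17, 3.22 and 8.73 CPM in tumors labelled TKO. All tumors labelled DKO thus exceeded all tumors labelled TKO, which overlapped the control livers. The log2 fold change of Brca1 was 1.09 ± 0.37 (SE, adjusted p = 0.10) in tumors labelled DKO, 0.33 ± 0.37 (adjusted p = 0.71) in tumors labelled TKO and -0.76 ± 0.36 for TKO against DKO (adjusted p = 0.57).

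Bard1, the RING partner that forms a ubiquitin ligase with BRCA1, was at 0.246 to 0.881 CPM in control livers, 1.12 to 6.88 CPM in tumors labelled DKO and 0.614 to 2.83 CPM in tumors labelled TKO. Its highest value stood in DKO 2, where the other tumors labelled DKO reached 1.54 CPM, and its log2 fold change of 2.07 ± 0.69 in that group became 1.05 ± 0.41 without DKO 2 and TKO 1, and that of 1.14 in tumors labelled TKO became 0.51 ± 0.43. Rad51c, a strand exchange mediator, ranged from 0.678 to 1.48, 1.53 to 5.06 and 0.671 to 5.49 CPM over the groups in the same order, with log2 fold changes of 1.43 ± 0.60 and 1.57 ± 0.59. Rad54l, a motor that drives strand exchange, ranged from 0.371 to 1.03, 1.12 to 4.51 and 0.384 to 3.08 CPM, with log2 fold changes of 1.76 ± 0.64 and 1.13 ± 0.64, or 1.15 ± 0.46 and 0.37 ± 0.48 without DKO 2 and TKO 1. These last genes shared a pattern in which TKO 3 or TKO 4 remained at control levels. Rad54l shares 15.4% of its exonic bases with Lrrc41 on the opposite strand, and the strand setting of the counting is not given in the sources used here.

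The remaining mediators overlapped the control livers in both tumor groups. Palb2, which links BRCA1 to BRCA2, and Rad54b, a motor related to RAD54, had log2 fold changes of 1.06 and 0.91 in tumors labelled DKO and 0.21 and 1.07 in tumors labelled TKO. Without DKO 2 and TKO 1 the values of Rad54b were 0.15 and 0.69, and that of Palb2 in tumors labelled TKO was -0.44. Rad51b was at 0.82 and 0.58, and ranged from 4.76 CPM in TKO 3 to 20.1 CPM in DKO 1. The mediators Rad51d, Xrcc2 and Xrcc3 lay between -0.34 and 0.09 in both groups. Brca2, a mediator that acts on single-stranded DNA (Entrez 12190, chr5:151325205-151372321 in mm9, plus strand), had the lowest log2 fold change of the class in all tumors, at -0.21. It was at 2.89, 2.46, 3.32 and 4.61 CPM in control livers, 1.84, 3.72, 2.66 and 1.36 CPM in tumors labelled DKO and 4.40, 2.42, 2.45 and 4.70 CPM in tumors labelled TKO. The 3 groups overlapped, and the log2 fold changes of -0.48 ± 0.36 (SE, adjusted p = 0.44) and 0.07 ± 0.35 (adjusted p = 0.95) were of the size of their errors.

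**Figure D2:**
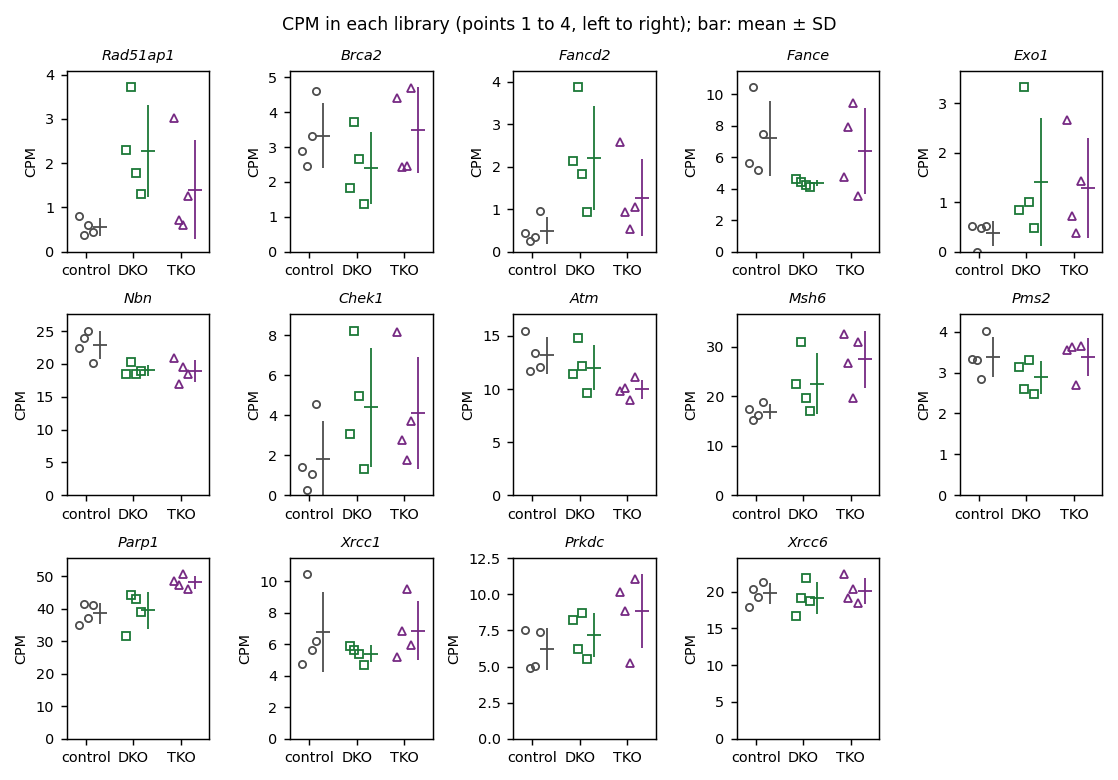
CPM of the members with the highest and the lowest fold change of each role class in every library, with points 1 to 4 of a group from left to right, n = 4 per group, and a bar for the mean ± SD (axes start at 0, where bars are cut off). The points of Rad51ap1 lie above all controls in tumors labelled DKO (1.30 to 3.72 CPM), and those of Parp1 lie above all other libraries in tumors labelled TKO (46.0 to 50.6 CPM).

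The Fanconi anemia genes lay on both sides of the control livers. In tumors labelled DKO, 4 of 11 had a log2 fold change above 1 (Fancd2, Fanci, Fanca and Fancb), and Fance, Fancf and Fancl lay below all controls. These 3 were the only ones of the 41 members to do so, a share near the 7.3% of all genes. None of the 11 was called by edgeR. Fancd2 and Fanci encode the pair of proteins that are clamped onto crosslinked DNA when ubiquitinated, whereas Fance, Fancf and Fancl encode subunits of the core complex that ubiquitinates them, Fancl being its E3 ligase.

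Fancd2 (Entrez 211651, chr6:113481676-113547011 in mm9, plus strand) was at 0.445, 0.246, 0.339 and 0.952 CPM in control livers, 2.15, 3.88, 1.83 and 0.943 CPM in tumors labelled DKO and 2.59, 0.924, 0.537 and 1.04 CPM in tumors labelled TKO, on 2 to 49 counts. DKO 4, TKO 2 and TKO 3 lay below the highest control, and the other 5 tumors above it. The log2 fold change was 2.08 ± 0.59 (SE, adjusted p = 0.074) in tumors labelled DKO and 1.33 ± 0.60 (adjusted p = 0.30) in tumors labelled TKO, and without DKO 2 and TKO 1 it was 1.67 ± 0.50 and 0.70 ± 0.52. Fanci ranged from 0.369 to 1.41 CPM in control livers, 0.884 to 6.72 CPM in tumors labelled DKO and 0.537 to 3.92 CPM in tumors labelled TKO, with log2 fold changes of 1.79 ± 0.71 and 1.08 ± 0.71, or 1.04 ± 0.55 and 0.34 ± 0.56 without those tumors. It shares 14.8% of its exonic bases with Polg on the opposite strand.

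Fance (Entrez 72775, chr17:28450475-28463513 in mm9, plus strand) was at 5.64, 10.4, 5.22 and 7.47 CPM in control livers, 4.60, 4.43, 4.26 and 4.13 CPM in tumors labelled DKO and 4.76, 7.89, 9.43 and 3.51 CPM in tumors labelled TKO. The tumors labelled DKO lay closely together below the controls, whereas TKO 1 and TKO 4 lay below all controls and TKO 2 and TKO 3 within their range. Its log2 fold change in tumors labelled DKO was -0.72 ± 0.31 (SE, adjusted p = 0.18). Fancl was at 9.27, 10.6, 9.42 and 7.47 CPM in control livers, 6.90, 6.41, 5.03 and 4.72 CPM in tumors labelled DKO and 8.32, 6.75, 8.59 and 11.1 CPM in tumors labelled TKO. Its log2 fold change was -0.67 ± 0.20 (SE, adjusted p = 0.077) in tumors labelled DKO, -0.08 ± 0.20 in tumors labelled TKO, and 0.60 ± 0.20 for TKO against DKO, where its adjusted p of 0.45 was the lowest of any member. Vrk2 shares 13.7% of the exonic bases of Fancl on the opposite strand.

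Of the other Fanconi genes, the core complex members Fanca and Fancb had log2 fold changes of 1.39 and 1.19 in tumors labelled DKO and 1.39 and 0.67 in tumors labelled TKO. Without DKO 2 and TKO 1 these were 1.08 and 0.57, and 0.89 and 0.04. Brip1, a helicase that binds BRCA1, was at 0.41 and 0.60. Fancc, Fancg and Fancm, the last a translocase that recognises stalled forks, lay between -0.07 and 0.26 in both groups, and Fancf was at -0.42 and 0.05. The core complex genes thus had estimates on both sides of 0.

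In end resection and resolution, Exo1 stood apart from the MRN subunits. Exo1, the exonuclease that chews back broken ends (Entrez 26909, chr1:177810909-177841527 in mm9, plus strand), was at 0.519, 0, 0.474 and 0.513 CPM in control livers, 0.843, 3.32, 1.01 and 0.472 CPM in tumors labelled DKO and 2.65, 0.711, 0.384 and 1.42 CPM in tumors labelled TKO, on 0 to 44 counts. Of the 8 tumors, DKO 4 and TKO 3 lay within the control range. Its log2 fold changes were 1.77 ± 0.79 (SE, adjusted p = 0.20) and 1.68 ± 0.79 (adjusted p = 0.32). Without DKO 2 and TKO 1, Exo1 fell below the filter, so it passed the filter only with those tumors. Eme1, a subunit of a junction-cutting nuclease, was below the filter, with 0 to 2 counts in control livers, 4 to 12 in tumors labelled DKO and 2 to 14 in tumors labelled TKO.

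Nbn (Entrez 27354, chr4:15885072-15919736 in mm9, plus strand) was at 22.5, 24.0, 25.1 and 20.1 CPM in control livers, 18.5, 20.2, 18.5 and 19.0 CPM in tumors labelled DKO and 20.9, 16.99, 19.5 and 18.5 CPM in tumors labelled TKO. Its values were among the steadiest of the members, and of the tumors only DKO 2 and TKO 1 reached the lowest control. The log2 fold change was -0.27 ± 0.11 (SE) in both genotypes, with adjusted p of 0.17 and 0.26. The other MRN subunits, the nuclease Mre11a and the ATPase Rad50, lay between -0.09 and 0.17, and Blm, a helicase that dissolves recombination intermediates, was at -0.06 and -0.16.

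Of the checkpoint kinases, only Chek1 had log2 fold changes above 1. Chek1, the effector kinase that halts cells with stalled forks (Entrez 12649, chr9:36516067-36534650 in mm9, minus strand), was at 1.41, 0.246, 1.08 and 4.54 CPM in control livers, 3.07, 8.23, 4.97 and 1.30 CPM in tumors labelled DKO and 8.14, 2.77, 1.76 and 3.73 CPM in tumors labelled TKO. The control livers alone spanned 18.5-fold, and control 4 exceeded 5 of the 8 tumors. Its log2 fold changes of 1.23 ± 0.73 (SE, adjusted p = 0.33) and 1.14 ± 0.73 (adjusted p = 0.47) did not exceed that spread, and without DKO 2 and TKO 1 they were 0.74 ± 0.71 and 0.56 ± 0.72.

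Atm, the kinase activated by broken ends (Entrez 11920, chr9:53247254-53344845 in mm9, minus strand), was at 15.5, 11.7, 13.4 and 12.1 CPM in control livers, 11.4, 14.8, 12.1 and 9.67 CPM in tumors labelled DKO and 9.77, 10.1, 8.97 and 11.1 CPM in tumors labelled TKO. It was the only member below all controls in every tumor labelled TKO, beside 3.29% of all genes, with a log2 fold change of -0.40 ± 0.16 (SE, adjusted p = 0.24). Atr, the kinase of stalled forks, was at 0.15 and -0.17, its partner Atrip at -0.23 and -0.10, and Chek2, the effector kinase of ATM, at 0.65 and 0.29. Atrip shares 25.8% of its exonic bases with Trex1 on the same strand, so its counts are uncertain.

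Msh6, which recognises mismatched bases (Entrez 17688, chr17:88374390-88390223 in mm9, plus strand), was at 17.4, 15.1, 16.3 and 18.7 CPM in control livers, 22.5, 31.0, 19.6 and 17.04 CPM in tumors labelled DKO and 32.6, 26.7, 19.6 and 30.9 CPM in tumors labelled TKO. All tumors labelled TKO lay above all controls, as was the case for Msh6 and Parp1 among the members and for 4.38% of all genes, and only DKO 4 of the other tumors lay within the control range. The log2 fold change was 0.70 ± 0.20 (SE, adjusted p = 0.15) in tumors labelled TKO and 0.41 ± 0.20 (adjusted p = 0.23) in tumors labelled DKO. It had 123 to 540 counts per library, and its log2 fold change in tumors labelled DKO was 0.22 ± 0.18 without DKO 2 and TKO 1. Pms2, the endonuclease subunit of mismatch repair (Entrez 18861, chr5:144670833-144698178 in mm9, plus strand), was at 3.34, 3.32, 2.85 and 4.03 CPM in control livers, 3.14, 2.61, 3.31 and 2.48 CPM in tumors labelled DKO and 3.56, 3.62, 2.68 and 3.66 CPM in tumors labelled TKO, with overlapping groups.

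No member lay above or below all controls in all 8 tumors, where 2.2% and 1.46% of all genes did. Parp1 (Entrez 11545, chr1:182499086-182531384 in mm9, plus strand) was at 34.9, 41.3, 37.0 and 41.2 CPM in control livers, 31.7, 44.1, 43.1 and 39.0 CPM in tumors labelled DKO and 48.5, 47.2, 50.6 and 46.0 CPM in tumors labelled TKO. The tumors labelled TKO lay above both other groups, and Parp1 was the only member above all tumors labelled DKO (2.75% of all genes), as Brca1 was the only member below them (2.12%). Its log2 fold change was 0.32 ± 0.12 (SE, adjusted p = 0.24) against control livers and 0.28 ± 0.12 (adjusted p = 0.55) against tumors labelled DKO. Xrcc1, the scaffold that PARP1 recruits to nicks (Entrez 22594, chr7:25332169-25358457 in mm9, plus strand), was at 4.75, 10.4, 5.62 and 6.22 CPM in control livers, 5.90, 5.62, 5.38 and 4.66 CPM in tumors labelled DKO and 5.19, 6.82, 9.51 and 5.97 CPM in tumors labelled TKO. The groups overlapped.

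The 4 end joining genes had log2 fold changes between -0.05 and 0.50 in both tumor groups, and none was called. Xrcc6 (Entrez 14375, chr15:81818265-81870515 in mm9, plus strand) was at 17.9, 20.4, 19.3 and 21.3 CPM in control livers, 16.6, 19.1, 21.9 and 18.7 CPM in tumors labelled DKO and 22.4, 19.1, 20.3 and 18.4 CPM in tumors labelled TKO, and its log2 fold changes were -0.05 ± 0.12 and 0.02 ± 0.12 (SE). Its Ku partner Xrcc5 was at 0.16 and 0.11, and Lig4, the ligase of the pathway, at 0.09 and 0.14. Prkdc, the kinase recruited by Ku (Entrez 19090, chr16:15637959-15842332 in mm9, plus strand), was at 7.56, 4.92, 5.01 and 7.39 CPM in control livers, 8.20, 6.25, 8.69 and 5.54 CPM in tumors labelled DKO and 10.2, 8.88, 5.22 and 11.04 CPM in tumors labelled TKO. Its log2 fold changes were 0.20 ± 0.26 and 0.50 ± 0.26, and the groups overlapped.

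**Figure D3:**
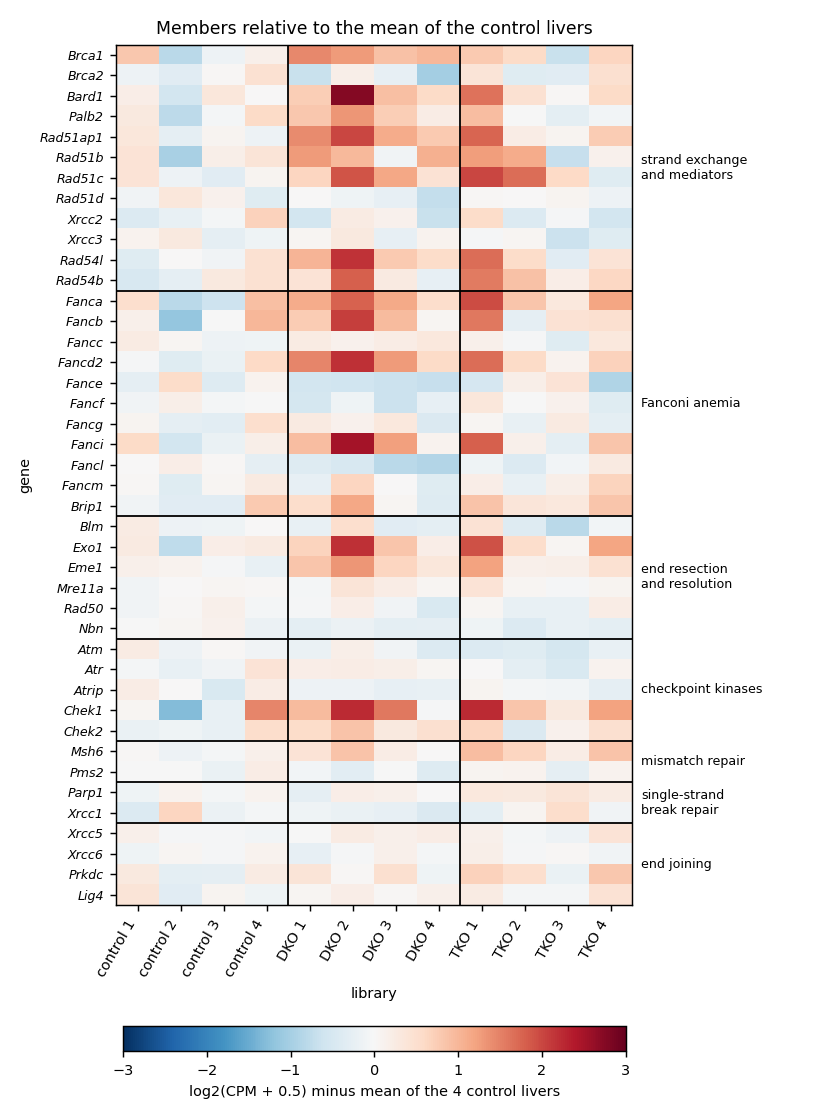
Each of the 42 members (rows, grouped by role) in each of the 12 libraries (columns), coloured by log2(CPM + 0.5) minus the mean of the 4 control livers. Values run from -1.30 to 2.77, and the darkest cells stand in DKO 2 and TKO 1, while 3 of the 4 end joining genes (Xrcc5, Xrcc6 and Lig4) stay pale in all libraries.

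The tumors of a genotype differed widely among themselves. The highest CPM of a member over the tumors was between 1.23 times (Nbn) and 12.5 times (Fanci) its lowest. DKO 2 held the highest value of 14 members, TKO 4 of 7 and TKO 1 of 6, whereas control 2 held the lowest value of 14 and DKO 4 of 10. A mitotic score, the mean log2 CPM of the 30 mitotic markers, was 0.47, 0.03, -0.05 and 0.72 in control livers 1 to 4, 2.09, 2.80, 1.60 and 1.21 in tumors labelled DKO and 2.18, 1.29, 0.49 and 1.80 in tumors labelled TKO. The tumors with the darkest cells thus also had the highest mitotic score of their genotype, and TKO 3 lay within the range of the control livers. In bulk tissue, fewer cycling cells and less of the RNA per cell cannot be told apart.

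Each gene was fitted with a mean for each group and a slope on the mitotic score, which asks whether it moved with mitotic RNA among libraries of the same group. Of the 41 tested members, 3 had a slope called above 0 by edgeR, where 0.317% of all genes did, and 0 had a slope called below 0 (0.0216%). They were Fanci (1.62 ± 0.26 log2 units per unit of score, SE, adjusted p = 0.026), Fancd2 (1.28 ± 0.23, adjusted p = 0.046) and Msh6 (0.47 ± 0.07, adjusted p = 0.020). At an unadjusted p under 0.05, 18 members had a slope above 0 (5.81% of all genes) and 0 had a slope below it. A slope above 0 of any size was found for 38 members (48.3% of all genes), and a slope above 1 for 11 (2.03%), namely Bard1, Palb2, Rad51ap1, Rad54l, Rad54b, Fanca, Fancb, Fancd2, Fanci, Exo1 and Chek1. DKO 2 held the highest value of 10 of these 11.

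The called slopes rest on few libraries, and 4 to 59 of all genes had a called slope when each library was left out in turn. No member was called without DKO 2, DKO 4, TKO 1 or TKO 3, and Msh6 alone was called without control 3 or TKO 2. Without control 2, control 4 or DKO 1, Fanci and Msh6 were called, and Rad54l joined them without control 1. Fancd2 was called only with all libraries or without DKO 3 or TKO 4, and without TKO 4 the 3 members and Rad54l were called. The estimates moved little, with Msh6 between 0.43 without DKO 2 and 0.49 without TKO 1. The slopes of the end joining genes were flat to moderate, with Xrcc6 at 0.01, Xrcc5 at 0.12, Lig4 at 0.17 and Prkdc at 0.41, and Parp1 was at 0.00. Only Fance (-0.34) and Xrcc1 (-0.26) had estimates below 0.

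In the same fit, with the groups compared at equal mitotic score, the median log2 fold change of the members was -0.41 in tumors labelled DKO, -0.24 in tumors labelled TKO and -0.34 in all tumors, beside 0.0041, 0.030 and 0.012 over all tested genes. No member was above 1 at equal score in these comparisons, where 5.19%, 4.01% and 4.06% of all genes were, and edgeR called 0 genes of any kind in these comparisons, with 5, 3 and 3 members at an unadjusted p under 0.05 (6.4%, 8.64% and 7.23% of all genes). Rad51ap1 stood at 0.15 and -0.14, Fancd2 at -0.05 and -0.26, and Fancl at -0.88 and -0.22 in tumors labelled DKO and TKO. A score for S phase, the mean log2 CPM of 18 replication genes, was 1.95 to 3.37 in control livers, 2.55 to 4.25 in tumors labelled DKO and 2.80 to 4.40 in tumors labelled TKO. Mitotic scores ran from -0.05 to 0.72 in control livers, 1.21 to 2.80 in tumors labelled DKO and 0.49 to 2.18 in tumors labelled TKO. No tumor labelled DKO thus had the score of a control liver. The values at equal mitotic score therefore rest on slopes extended past the scores seen in a group. They cannot show how the groups compare at a shared score, and the part of cycling cells in the values of the members was not tested.

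**Figure D4:**
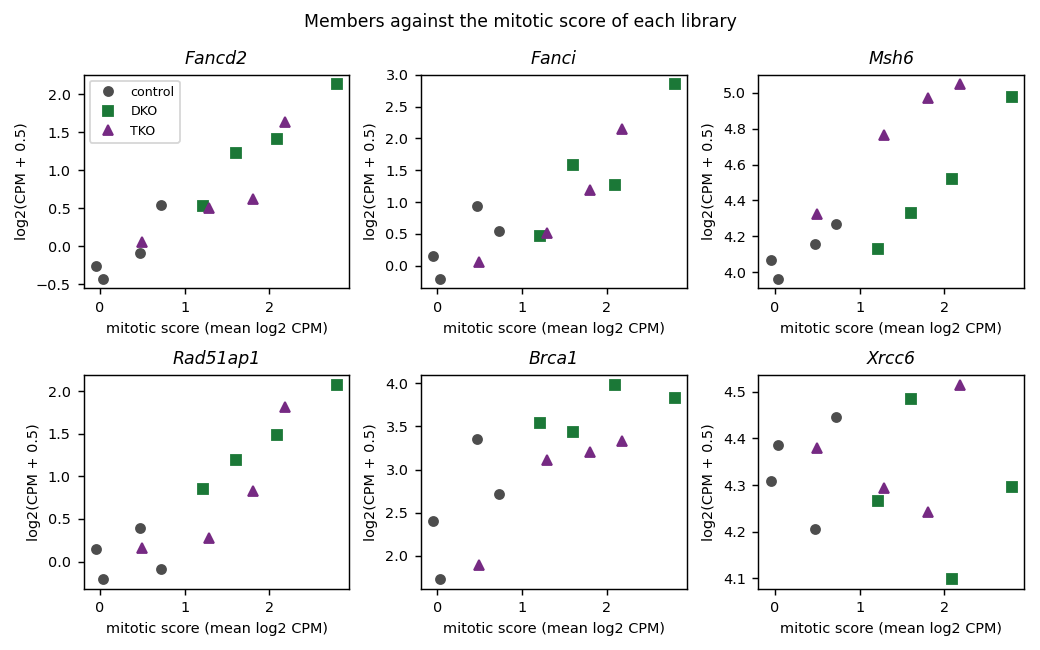
Log2(CPM + 0.5) of 6 members against the mitotic score (mean log2 CPM of 30 mitotic markers), with a point for each control liver (circles), tumor labelled DKO (squares) and tumor labelled TKO (triangles). Fancd2, Fanci and Msh6 tend upwards with the score, up to scores of 2.80 and 2.18, whereas Xrcc6 does not.

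The promoters of the members were searched for the letters of E2F sites, since E2F factors are known to regulate genes of DNA synthesis and repair. RefSeq windows from 250 bases before to 50 bases after the start (GRCm38.p6) were at hand for 34 members. The letters TTTCCCGC, TTTCGCGC, TTTGCCGC or TTTGGCGC on either strand were found for 7 of the 34 (20.6%), beside 4.5% of the tested genes and 2.6% of all genes with a window. The 7 were Brca2, Bard1, Rad51c, Fancg, Chek2, Msh6 and Xrcc6. The letters TTTGAA, the core of the CHR element bound by the DREAM complex, were found for 3 members (8.82%), beside 14.8% of the tested genes. These are matches of letters, not sites shown to be bound. The E2F letters were found for 2 of the 7 members with a log2 fold change above 1 in all tumors and a window, Bard1 and Rad51c, and for 5 of the other 26 tested members, and thus in genes with high and with low estimates.

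The matches of Brca2, Bard1 and Chek2 are shown with 30 bases on each side. Each lies before the start, in a stretch with at most 30 bases in an annotated untranslated region. The stretches of Fancg and Xrcc6 had 40 and 68 such bases and are not shown. The matches of Rad51c and Msh6 did not lie wholly before the start and are not shown either. The estimates of the genes shown differ widely, from -0.21 for Brca2 and 0.47 for Chek2 to 1.60 for Bard1 as log2 fold changes in all tumors. Bard1 and Chek2 were added to the display after their values were seen. Capitals mark the E2F letters, which begin 168, 209 and 152 bases before the RefSeq start of the window on GRCm38.p6. The starts annotated on mm9 lie at other distances. Each stretch was placed on mm9 by its exact match near the gene, at chr5:151324998-151325065 (plus strand) for Brca2, chr1:71149718-71149785 (minus strand) for Bard1 and chr5:111268820-111268887 (plus strand) for Chek2.
Brca2: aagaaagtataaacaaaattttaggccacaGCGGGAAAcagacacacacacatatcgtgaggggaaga
Bard1: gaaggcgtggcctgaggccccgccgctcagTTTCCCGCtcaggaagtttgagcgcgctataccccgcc
Chek2: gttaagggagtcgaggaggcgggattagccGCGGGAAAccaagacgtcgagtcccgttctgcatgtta

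A further 100 repair genes that are not members were followed for comparison, and 98 were tested. Of these, 1 was called, H2afx, in tumors labelled DKO (2.42% of all genes) and in all tumors (2.48%). It encodes the histone H2AX that is phosphorylated around breaks. In tumors labelled TKO, 0 were called by edgeR (0.0864% of all genes), with 12 at an unadjusted p under 0.05 (16.3%) and 2 by DESeq2 (3.49%). Between the genotypes the same counts were 0 (0%), 5 (9%) and 0 (0.398%). H2afx was at 5.64, 5.41, 6.84 and 7.54 CPM in control livers, 10.8, 13.1, 9.11 and 10.5 CPM in tumors labelled DKO and 10.9, 9.45, 8.67 and 9.92 CPM in tumors labelled TKO. Every tumor lay above every control, as for 2.2% of all genes, with log2 fold changes of 0.77 ± 0.17 (SE, adjusted p = 0.045) in tumors labelled DKO and 0.61 ± 0.17 (adjusted p = 0.14) in tumors labelled TKO. The call in tumors labelled DKO was lost when any control liver, DKO 1, DKO 2, DKO 4 or TKO 1 was left out, and the call in all tumors also without TKO 2.

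A log2 fold change above 1 in all tumors was seen for 5 of these 98 genes, a share near the 5.99% of all genes. The highest were Neil3, a glycosylase for oxidised bases, at 2.03 ± 0.63 (SE, adjusted p = 0.086), Lig1, the ligase of replication, at 1.42 ± 0.40 (adjusted p = 0.072), and Clspn, the adaptor that lets ATR activate CHK1, at 1.39 ± 0.73 (adjusted p = 0.28). The lowest were Rpa3, a subunit of the single-strand binding complex, at -0.50 ± 0.28, Xpa, the damage verifier of nucleotide excision, at -0.48 ± 0.24, and Dclre1a, a crosslink nuclease, at -0.32 ± 0.29, none of them called. The median log2 fold change of the 98 genes in all tumors was 0.09, beside 0.02 over all tested genes. On the mitotic score, 62 of them had a slope above 0 (48.3% of all genes), 1 of them called (0.317%).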

How the data were processed

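SOLiD libraries were made from polyadenylated RNA. The authors aligned reads to mm9 (BWA), assigned them to genes (featureCounts) and deposited raw counts for 26301 Entrez genes without normalization. The submitters' processing notes name the same tools and build, without versions. How featureCounts handled strand and multiply aligned reads is not given in the sources used here. Symbols were found for 24191 identifiers, which took 99.4% of the counts. Coordinates are those of GENCODE vM1 on mm9, 1-based, and were found for 41 members. Rad54b had no unique annotated gene and so no value per kilobase.

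Counts were compared with edgeR 4.0.16 in R 4.3.3, with TMM, filterByExpr (13882 genes kept), a mean for each group over all 12 libraries and the quasi-likelihood test, adjusted by Benjamini-Hochberg over all tested genes at 0.05. DESeq2 1.42.0 and limma 3.58.1 (voom with quality weights) were alternatives. Scores are means of log2 CPM with a prior count of 2. The sex-linked score is that mean over Ddx3y, Eif2s3y, Kdm5d and Uty, which lie on the Y chromosome. Counts of 9165812 to 16424973 per library and of 0 to 804 per member limit the precision of the low members, where counting error and the spread between samples add up. Replicate numbers repeat between groups. Deviations of libraries from their group means had r from -0.17 to 0.37 over 12 pairs of the same number. Over 36 pairs of different numbers r was -0.35 to 0.32. The highest were DKO 3 with TKO 3 (0.37) and DKO 4 with TKO 4 (0.34), but pairs of the same number were not alike throughout. The labels do not state a pairing, and the numbers were not taken as pairs. No pair of libraries of the same group agreed within sampling noise. Control 2 and control 3 were the closest pair, with squared differences 19.9 times sampling noise, beside 62.7 times or more for every other such pair. Values in every library are given for the member with the highest and the one with the lowest fold change of each class, and for Brca1, Fancl and H2afx. The members, lists, tests and alternatives were chosen with earlier results of these data known. The code was tested on simulated data.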

Additional observations from a re-analysis of the deposited data

Results flagged for a closer look

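In groups of 4 libraries, a library farther from the others than the 95% critical value of Dixon's test allows was found in 10 of 159 groups, formed by 53 genes in 3 groups each. Chance alone gives about 1 in 20 groups, or 7.95 of the 159. DKO 2 stood above its group for Bard1 (6.88 CPM, the others 1.12 to 1.54), Blm (6.25 CPM, the others 3.25 to 3.60) and Clspn (5.77 CPM, the others 0.766 to 1.53). TKO 1 stood above its group for Palb2 (1.57 CPM, the others 0.384 to 0.569) and Clspn (4.10 CPM, the others 0.522 to 1.07). Control 4 stood above the other controls for Brip1 (5.13 CPM, the others 2.09 to 2.52) and Chek2 (2.42 CPM, the others 1.22 to 1.35). Exo1 had 0 CPM in control 2, where the other controls had 0.474 to 0.519 CPM. Pms2 was low in TKO 3 (2.68 CPM, the others 3.56 to 3.66), and Rb1 was high in DKO 1 (11.3 CPM, the others 7.99 to 8.38). DKO 2 and TKO 1 had the highest mitotic score of their genotypes, and the part of that score in these values was not tested.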

How the results depend on the processing

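The count of members called kept to 0 in tumors labelled TKO and between the genotypes under each of 25 alternatives. Few genes of any kind were called there, so this says little about the members. In tumors labelled TKO, 507 of all genes were called with DESeq2, 97 with voom and 0 to 231 without a library, against 12. Between the genotypes, 56 were called with DESeq2 and 0 under every other alternative. In tumors labelled DKO the count of members called was 5 with DESeq2, 5 with voom, 1 (Rad51ap1) with only the libraries of the comparison and 4 at an adjusted p of 0.1, where 1518, 1804, 759 and 1460 of all genes were called against 336. In all tumors it was 3 with DESeq2, 4 with voom and 3 at an adjusted p of 0.1, where 1422, 1813 and 1317 of all genes were called against 344. It was 0 to 2 in all tumors when each library was left out in turn, where leaving out TKO 3 gave 2 (Msh6 and Rad51ap1) of 1019 genes called. The slopes called, 3 in all, became 12 with DESeq2, 1 each with total counts, at least 10 counts in every library or no filter, 6 at an adjusted p of 0.1 and 0 to 4 without a library, where 47 of all genes had a called slope, against 244, 42, 31, 39, 126 and 4 to 59 under these alternatives in the same order. For the other repair genes, 1 was called in tumors labelled DKO, against 5 with DESeq2, 2 with at least 10 counts, 7 with voom, 2 with only the libraries of the comparison, 5 at an adjusted p of 0.1, 0 with total counts, no filter or any of the mitotic, S phase and sex-linked scores as a covariate, and 0 to 2 without a library. In tumors labelled TKO it was 2 with DESeq2. In all tumors it was 4 with DESeq2, 6 with voom, 5 at an adjusted p of 0.1, 0 with total counts, no filter or any of the scores, and 0 to 3 without a library. With the replicate number as a block, 0 slopes of members (13 of all genes) and 0 other repair genes were called, and the count of members called stayed at 0 in each comparison. The labels do not state that samples of the same number are paired, so this was not taken as a paired analysis. The cause of these differences was not tested.

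Of 1310 values of single genes under alternatives, 1209 kept their direction and side of the threshold, 61 changed sign, 28 lost and 12 gained a call. The only values called at the start were the slopes of Fancd2, Fanci and Msh6, so the 28 lost calls were all theirs. Most values that kept their side were of genes called neither before nor after, so the 1209 do not measure how stable the calls were. The mitotic scores of control livers and tumors labelled DKO did not overlap, so values with that score as a covariate rest on extended slopes. With the mitotic score as a covariate, the log2 fold changes in tumors labelled DKO turned to -0.048 for Fancd2, -1.06 for Exo1, -1.08 for Chek1, -0.38 for Msh6, 0.12 for Xrcc1 and -0.43 for Prkdc. In tumors labelled TKO they turned to -0.14 for Rad51ap1, -0.72 for Brca2, -0.26 for Fancd2, 0.18 for Fance, -0.43 for Exo1 and -0.52 for Chek1. In all tumors they turned to -0.15 for Fancd2, 0.014 for Fance, -0.75 for Exo1, -0.80 for Chek1, -0.12 for Msh6, 0.21 for Xrcc1 and -0.21 for Prkdc, and for TKO against DKO to 0.64 for Exo1 and 0.56 for Chek1. With the S phase score they turned to -0.014 for Parp1 and -0.025 for Prkdc in tumors labelled DKO, to -0.62 for Brca2, 0.085 for Fance, -0.029 for Exo1, -0.30 for Chek1 and -0.049 for Xrcc6 in tumors labelled TKO, and to -0.080 for Chek1 and 0.10 for Xrcc1 in all tumors. With the sex-linked score they turned to -0.0082 for Parp1 in tumors labelled DKO, -0.13 for Brca2 and -0.036 for Xrcc6 in tumors labelled TKO, and 0.15 for Exo1 and 0.11 for Chek1 for TKO against DKO. That score adjusts for no visible difference of sex, as every library had 1 to 6 counts of Xist and 472 to 1126 of Ddx3y. Of its genes, Kdm5d varied most over the tumors, 10.1-fold, beside 1.38-fold to 1.70-fold for the others. Total counts shifted the median of all genes by 0.05, 0.15, 0.10 and 0.10 in the 4 comparisons and turned Xrcc6 to 0.023 in tumors labelled DKO and 0.10 in all tumors, and Exo1 to 0.036 and Chek1 to 0.018 for TKO against DKO. When each library was left out in turn, the values that changed sign ran from -0.025 to 0.11 for Parp1 in tumors labelled DKO, from -0.11 to 0.27 for Brca2, -0.41 to 0.065 for Fance, -0.17 to 0.31 for Xrcc1 and -0.040 to 0.062 for Xrcc6 in tumors labelled TKO, from -0.28 to 0.13 for Xrcc1 and -0.057 to 0.027 for Xrcc6 in all tumors, and from -0.72 to 0.75 for Exo1 and -0.66 to 0.41 for Chek1 for TKO against DKO. None of these values was called in any of the 4 comparisons. The choice to leave out DKO 2 and TKO 1 together was made after seeing the data and left 0 members called, with 4, 3, 2 and 0 of all genes called in the 4 comparisons.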

Other observations

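Kdm5d, a demethylase gene on the Y chromosome, was picked out after its values were seen. It had 28, 14 and 38 counts in DKO 1, DKO 2 and TKO 1 and 131 to 243 counts in the other 9 libraries. Those 3 tumors had the highest mitotic scores (2.09, 2.80 and 2.18). Ddx3y, another gene of that chromosome, was at 47.9 to 81.2 CPM in all 12 libraries. The edgeR slope of Kdm5d on the mitotic score was -1.43 ± 0.35 (SE, adjusted p = 0.15), which did not pass the threshold.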
